A study of Mus musculus with 6 samples.

Results

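The genes described here handle ATP and adenosine outside the cell: Entpd1, which encodes the ectonucleotidase CD39, Nt5e, which encodes the ectonucleotidase CD73, P2rx7, which encodes the ATP-gated channel P2X7, and Adora2a, which encodes the main adenosine receptor of T cells. Every probe set assigned to one of these 4 symbols was taken, which gave 9 of the 45101 probe sets on the array, 3 each for Entpd1, Nt5e and P2rx7. Adora2a was not analysed here. The cells were CD8 T cells that had entered MCA-205 fibrosarcomas of male C57BL/6 Eomes-GFP mice, in which GFP reports the T-box transcription factor Eomes. The 3 Eomes+ arrays hold RNA of GFP-positive cells and the 3 Eomes- arrays RNA of GFP-negative cells. Both groups share the treatment: aOX40, which binds a costimulatory receptor, at 250 ug on days 12 and 16, with aCTLA-4, which blocks an inhibitory one, at 200 ug on days 12, 14 and 16, before harvest on day 19. The comparison asks how the purine genes differ between CD8 T cells with and without Eomes in treated tumours. The reporter marks cells by GFP and not by Eomes protein. Because the labels do not link arrays to animals, p-values measure only the spread between these samples.

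Dying and activated cells release ATP, which acts on P2X and P2Y receptors. On the cell surface CD39 removes phosphates from ATP and ADP to give AMP, and CD73 turns AMP into adenosine, so together they convert a danger signal into an inhibitory one. Adenosine acts on T cells mainly through the product of Adora2a, which raises cyclic AMP and dampens T cell receptor signalling. In tumours CD39 is known as a surface marker of chronically stimulated CD8 T cells and of regulatory T cells, and P2X7 is known to control the survival and metabolism of memory CD8 T cells.

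Signals are log2 values as deposited, with array medians between 6.35 and 6.42. Eomes itself was at 10.38, 9.86 and 8.38 log2 on the Eomes+ arrays, against 6.85, 6.89 and 5.42 log2 on the Eomes- arrays. Even this difference of 3.15 log2 (SE 0.63), in the gene whose reporter defined the sort, did not reach a limma adjusted p under 0.05. A gene that misses that threshold may therefore still differ. CD8 T cell genes were high on all arrays, Cd8a at 13.05, 12.83 and 11.95 log2 on the Eomes+ arrays and 13.48, 13.55 and 12.56 log2 on the Eomes- arrays. RNA of other cells was present in unequal amounts. The 14 tested macrophage and monocyte genes averaged 8.54, 10.06 and 10.90 log2 on Eomes+ replicates 1, 2 and 3, against 8.24, 9.32 and 10.84 log2 on Eomes- replicates 1, 2 and 3. Both arrays numbered 3 therefore held the most macrophage signal and both numbered 1 the least. The 3' to 5' difference of the Gapdh control probe sets, a sign of RNA quality, was 1.74 ± 0.17 log2 in Eomes+ and 1.24 ± 0.26 log2 in Eomes- (n = 3 each, SD, two-sided p = 0.1 by an exact permutation test, which cannot go lower with 3 arrays against 3). That of the Actb controls was smaller and nearly equal, 0.13 ± 0.04 log2 in Eomes+ and 0.05 ± 0.06 log2 in Eomes- (p = 0.2 by the same exact permutation test).

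Entpd1 had a lower mean in Eomes+ cells on all 3 of its probe sets, by between 1.56-fold and 2.03-fold, and none of the differences passed the test over all probe sets. On the brightest, 1450939_at, the signal was 9.41, 9.75 and 9.15 log2 on the Eomes+ arrays, against 10.63, 9.96 and 9.67 log2 on the Eomes- arrays. The groups overlapped here through a single pair of arrays, since Eomes+ replicate 2 lay above Eomes- replicate 3. The difference was -0.65 log2 (SE 0.31; 95% confidence interval -1.38 to 0.09; limma unadjusted p = 0.0755, adjusted p = 1.00). On 1423326_at the signal was 7.71, 7.82 and 6.94 log2 on the Eomes+ arrays, against 8.63, 8.75 and 8.15 log2 on the Eomes- arrays. Every Eomes+ array lay below every Eomes- array. The difference on this probe set was -1.02 log2 (SE 0.33; 95% confidence interval -1.82 to -0.23; limma unadjusted p = 0.0191, adjusted p = 1.00). The annotation gives both of these probe sets the same sequence record, so they are not independent readings of the gene. The third, 1453586_at, comes from another record and read 6.71, 7.40 and 7.60 log2 on the Eomes+ arrays, against 8.19, 8.01 and 7.58 log2 on the Eomes- arrays. Its groups met at Eomes+ replicate 3 and Eomes- replicate 3, which differed by only a few hundredths of a log2 unit, and the other Eomes+ arrays lay below all Eomes- arrays. Its difference was -0.69 log2 (SE 0.33; 95% confidence interval -1.48 to 0.10; limma unadjusted p = 0.0783, adjusted p = 1.00).

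**Figure D1:**
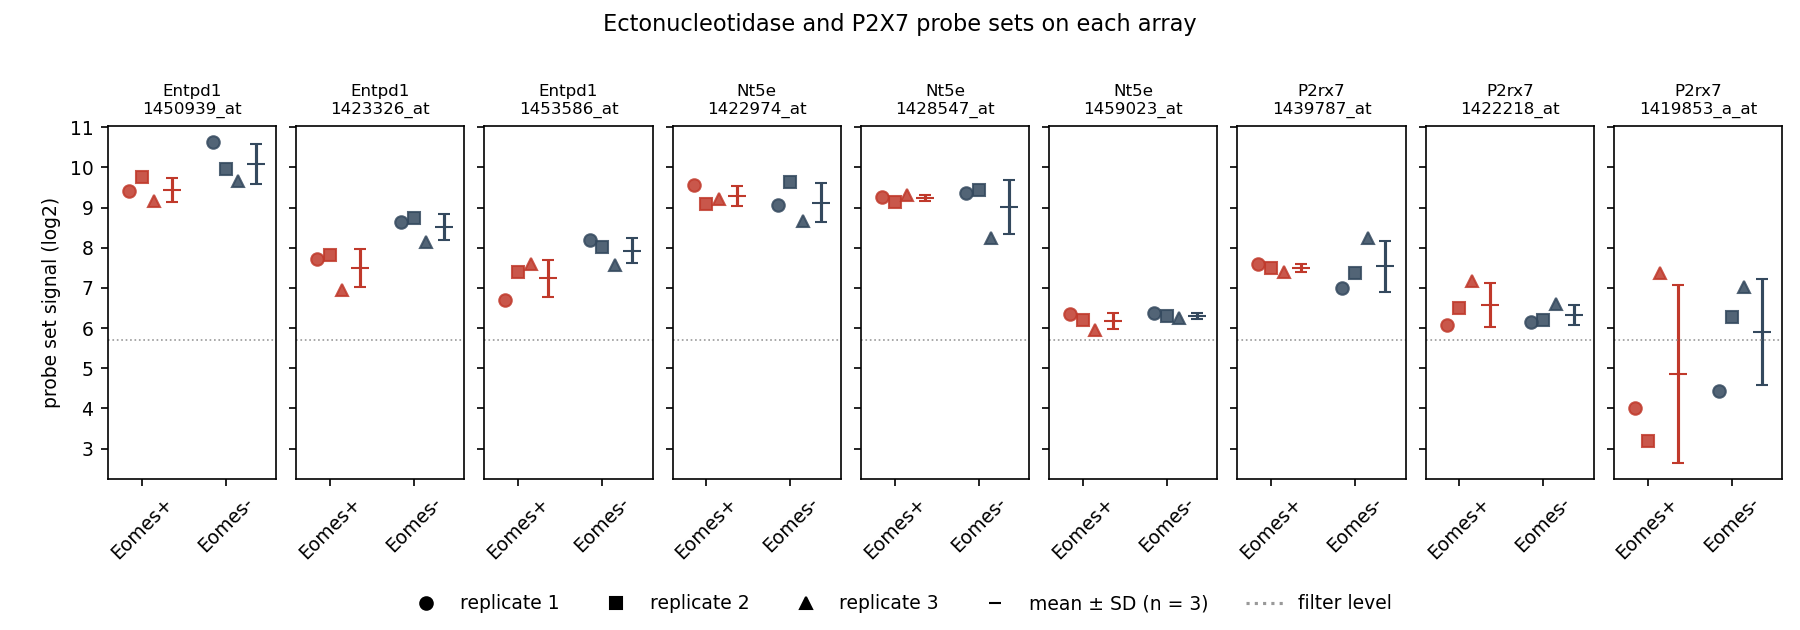
Log2 signal of the 9 probe sets of Entpd1, Nt5e and P2rx7 on each array, 1 panel per probe set, with Eomes+ arrays left and Eomes- arrays right. Symbols mark the replicate number, bars the mean ± SD of 3 arrays and the dotted line the filter level averaged over the arrays. On 1423326_at all Eomes+ points (at most 7.82) lie below all Eomes- points (at least 8.15), and the Nt5e and P2rx7 groups overlap.

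Against the whole table, limma called 0 of 27766 tested probe sets at an adjusted p under 0.05 (0%), and 0 of the 9 member probe sets. At an unadjusted p under 0.05 there were 936 probe sets (3.37%), among them 1 of the 9, Entpd1 1423326_at, and with the lower direction alone 629 (2.27%). Groups that did not overlap with Eomes+ below Eomes- occurred on 5.14% of all probe sets and on 1 of the 9, again 1423326_at. Without Eomes- replicate 1 or Eomes- replicate 2 its unadjusted p by limma was 0.0605 and 0.0712. In the other direction there was none among the 9, against 1.11% of all probe sets at an unadjusted p under 0.05 and 2.92% without overlap. The mean was lower in Eomes+ on 6 of the 9 and on 53.4% of all probe sets. A difference further below 0 than that of Entpd1 was found on 1.17% of probe sets for 1423326_at, on 4.06% for 1453586_at and on 4.8% for 1450939_at. Of 1591 genes that, like Entpd1, had exactly 3 tested probe sets, 350 (22%) had a lower mean in Eomes+ on all 3.

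The 2 annotated starts of Entpd1 are shown because Entpd1 is the member with the largest difference among those well above the filter level. Each window runs from 250 bases before to 50 after the start, from RefSeq on GRCm38.p6, plus strand, 5′ to 3′. Capitals mark the letters TGACG, the half-site of the cyclic AMP response element bound by CREB and CREM, which both windows hold once on the minus strand (read here as its reverse complement), beginning at bases -135 and -183 from the start.
Entpd1 chr19:40612116-40612415: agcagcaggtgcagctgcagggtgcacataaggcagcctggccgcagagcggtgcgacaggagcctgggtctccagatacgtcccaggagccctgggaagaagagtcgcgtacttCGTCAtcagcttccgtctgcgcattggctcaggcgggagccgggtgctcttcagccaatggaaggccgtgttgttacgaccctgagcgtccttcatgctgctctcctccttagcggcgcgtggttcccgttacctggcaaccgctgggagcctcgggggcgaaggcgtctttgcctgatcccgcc
Entpd1 chr19:40659520-40659819: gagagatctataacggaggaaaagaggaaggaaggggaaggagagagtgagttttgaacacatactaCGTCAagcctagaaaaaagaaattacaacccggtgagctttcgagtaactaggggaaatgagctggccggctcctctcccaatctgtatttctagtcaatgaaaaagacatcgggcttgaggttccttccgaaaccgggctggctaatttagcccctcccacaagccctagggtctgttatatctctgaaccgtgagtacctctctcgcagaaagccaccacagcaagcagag
Of 32851 mouse windows of 300 bases, 20.8% hold TGACG on either strand. The T-box core AGGTGT, searched on both strands because the cells were sorted on a T-box factor's reporter, is held by 13.7% of windows and by none of the 5 windows of Entpd1, Nt5e and P2rx7, nor do the Nt5e and P2rx7 windows hold TGACG. These matches describe letters only, and no binding was measured.

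Nt5e, whose enzyme makes adenosine from the product of CD39, had overlapping groups on all 3 probe sets. On the brightest, 1422974_at, it read 9.57, 9.08 and 9.20 log2 on the Eomes+ arrays, against 9.07, 9.64 and 8.66 log2 on the Eomes- arrays, so both the highest and the lowest value were Eomes- arrays. The difference was 0.16 log2 (SE 0.31; 95% confidence interval -0.58 to 0.90; limma unadjusted p = 0.627, adjusted p = 1.00). On 1428547_at it read 9.26, 9.14 and 9.30 log2 on the Eomes+ arrays, against 9.36, 9.43 and 8.25 log2 on the Eomes- arrays. Here a single array, Eomes- replicate 3, was low, and the other 5 lay close together. The difference was 0.22 log2 (SE 0.35; 95% confidence interval -0.62 to 1.06; limma unadjusted p = 0.552, adjusted p = 1.00), and without Eomes- replicate 3 it was -0.16 log2 on 1428547_at and -0.07 log2 on 1422974_at. The dim probe set 1459023_at lay between 5.96 and 6.36 log2 in Eomes+ and between 6.24 and 6.37 log2 in Eomes-, near the filter level of about 5.7 log2, with a difference of -0.12 log2 (SE 0.23; limma adjusted p = 1.00). The intervals still allow a change of Nt5e in either direction, and no difference in Nt5e was detectable with 3 arrays a group.

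P2rx7, whose channel opens at high extracellular ATP, also had overlapping groups on all 3 probe sets. On the brightest, 1439787_at, it read 7.60, 7.49 and 7.40 log2 on the Eomes+ arrays, against 7.0, 7.38 and 8.23 log2 on the Eomes- arrays. The Eomes+ arrays lay close together within the wider spread of the Eomes- arrays. The difference was -0.04 log2 (SE 0.36; 95% confidence interval -0.90 to 0.82; limma unadjusted p = 0.919, adjusted p = 1.00), which turned to 0.31 log2 without Eomes- replicate 3 and to 0.01 log2 without Eomes+ replicate 3. On 1422218_at it read 6.08, 6.49 and 7.16 log2 on the Eomes+ arrays, against 6.15, 6.20 and 6.61 log2 on the Eomes- arrays. The highest value in each group was replicate 3, which also held the most macrophage signal, and across the 6 arrays this probe set correlated at 0.87 with the macrophage list and at -0.90 with the CD8 T cell list (Pearson's r, a description over arrays that share samples and normalization). Its difference was 0.25 log2 (SE 0.34; 95% confidence interval -0.56 to 1.06; limma adjusted p = 1.00) and -0.03 log2 without Eomes+ replicate 3. The third, 1419853_a_at, passed the filter on 1 of 3 Eomes+ arrays and 2 of 3 Eomes- arrays. It read 4.01, 3.20 and 7.38 log2 on the Eomes+ arrays, against 4.44, 6.27 and 7.01 log2 on the Eomes- arrays, so its difference of -1.04 log2 had an SE of 1.16 (limma adjusted p = 1.00). That difference was -0.21 without Eomes+ replicate 2 and -2.30 log2 without Eomes+ replicate 3 (limma unadjusted p = 0.87 and 0.0258), and -2.25 log2 with array weights (unadjusted p = 0.0183). Correlations with the macrophage and CD8 T cell lists were weaker on the other probe sets, 0.60 and -0.59 for 1439787_at and 0.62 and -0.70 for 1419853_a_at. Macrophages also express P2rx7, and in sorted bulk RNA fewer cells of a type cannot be told apart from less RNA per cell.

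The 3 Entpd1 probe sets ran together across arrays, with Pearson's r of 0.84, 0.69 and 0.56 between them over the 6 arrays. The brighter Nt5e probe sets correlated at 0.79, while the P2rx7 probe sets correlated at only 0.24, 0.35 and 0.62. Between genes, Nt5e 1428547_at and P2rx7 1439787_at correlated at -0.90, where Eomes- replicate 3 was the lowest array for the first and the highest for the second. By the highest correlation over 6 arrays, the genes most like Entpd1 1450939_at were Rbl1 (0.991), a retinoblastoma family gene, Bmp8a (0.982), a growth factor gene, and Parp2 (0.976), a DNA repair enzyme gene, out of 94 genes (0.748% of 12571) above 0.9. Those most like Nt5e 1422974_at were Gucy2c (0.983), Jtb (0.981) and Phkg2 (0.981), and those most like P2rx7 1439787_at were Myl4 (0.990), Rad1 (0.983) and Samd8 (0.980). With 6 points from shared arrays these correlations are descriptions.

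Entpd1 is also expressed by macrophages, endothelial cells, B cells and regulatory T cells, so their markers are given beside it. Macrophage and monocyte genes had a higher mean in Eomes+ in 11 of 14 tested members (list median 0.31 log2), and tumour and fibroblast genes in 10 of 10 (0.30 log2). Single arrays decided these medians: the macrophage one was -0.34 log2 without Eomes+ replicate 3 or Eomes- replicate 1, 0.98 without Eomes+ replicate 1 and 1.06 log2 without Eomes- replicate 3, and the tumour one was -0.29 without Eomes+ replicate 3, -0.37 without Eomes- replicate 1, 1.00 without Eomes+ replicate 1 and 1.16 log2 without Eomes- replicate 3. Neither list therefore had a settled direction. The endothelial median (5 genes tested) was 0.43 log2, but -0.25 without Eomes- replicate 1 and 1.00 log2 without Eomes+ replicate 1. The B and plasma cell median (4 genes tested) was 0.32 log2, 0.17 without Eomes- replicate 1 and 0.01 log2 without both arrays numbered 1. With the mean of the macrophage and tumour lists as a covariate the 3 Entpd1 differences were -0.58, -0.95 and -0.70 log2 for 1450939_at, 1423326_at and 1453586_at (limma adjusted p = 0.552, 0.426 and 0.587).

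Most markers of CD4 and regulatory T cells ran the same way as Entpd1. Their mean over 7 tested genes was 8.33, 8.02 and 7.93 log2 on the Eomes+ arrays, against 8.72, 8.93 and 8.30 log2 on the Eomes- arrays, and 6 of 7 had a lower mean in Eomes+ (list median -0.34 log2, and between -0.45 and -0.27 log2 with 1 array left out). Foxp3, the regulatory T cell factor, read 7.25, 7.81 and 7.72 log2 on the Eomes+ arrays, against 7.81, 8.19 and 7.80 log2 on the Eomes- arrays (difference -0.34 log2, SE 0.28; limma adjusted p = 1.00). Cd4 read 7.16, 6.74 and 7.36 log2 on the Eomes+ arrays, against 7.29, 7.10 and 7.58 log2 on the Eomes- arrays (difference -0.24 log2, SE 0.28; limma adjusted p = 1.00). Neither gene was at background, and the groups of both overlapped. Ikzf2, the 1 tested gene of the list with a higher mean in Eomes+, differed by 0.32 log2 (SE 0.79). Its 2 other probe sets had the same direction, and its groups overlapped too. The groups of 2 other genes of the list, both at an unadjusted p under 0.05, did not overlap. Among all genes, 4.66% had groups that did not overlap with Eomes+ lower. A limma unadjusted p under 0.05 in either direction was found for 3.13% of all genes. Cd40lg, the CD40 ligand gene typical of activated CD4 T cells, read 5.06, 4.74 and 4.78 log2 on the Eomes+ arrays, all below the filter level. On the Eomes- arrays it read 5.74, 7.56 and 6.38 log2, all above that level (difference -1.70 log2, SE 0.46, limma unadjusted p = 0.00827, adjusted p = 1.00). It passed the filter only through the Eomes- arrays, and replicate 1 of these was barely above the level. The size of its difference is therefore uncertain, and its p-value is no support. The list's count, means, median and correlations include Cd40lg. With the 60th percentile filter, which Cd40lg does not pass, the list median was -0.31 log2. Capg, an actin-capping protein gene that is not specific to one cell type, read 10.73, 10.49 and 10.92 log2 on the Eomes+ arrays, against 11.50, 11.64 and 11.32 log2 on the Eomes- arrays (difference -0.77 log2, SE 0.17; limma unadjusted p = 0.00331, adjusted p = 1.00). CD8 T cell identity genes had a lower mean in Eomes+ in 9 of 11 tested members, but their list median of -0.16 log2 was 0.13 without Eomes+ replicate 3, 0.04 without Eomes- replicate 1 and -0.61 log2 without Eomes- replicate 3. Over the 6 arrays, 1423326_at correlated at 0.90 with the CD4 and regulatory list, at 0.66 with the CD8 list and at -0.53 with the macrophage list. For 1450939_at the correlations were 0.71, 0.64 and -0.61 in the order of those lists, and for 1453586_at 0.54, 0.12 and -0.03. The CD4 and regulatory list had the highest of these correlations on each probe set. The CD8 list was also positive on each, though weakly on 1453586_at. The part of these cells and of RNA quality in the Entpd1 difference was not tested.

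**Figure D2:**
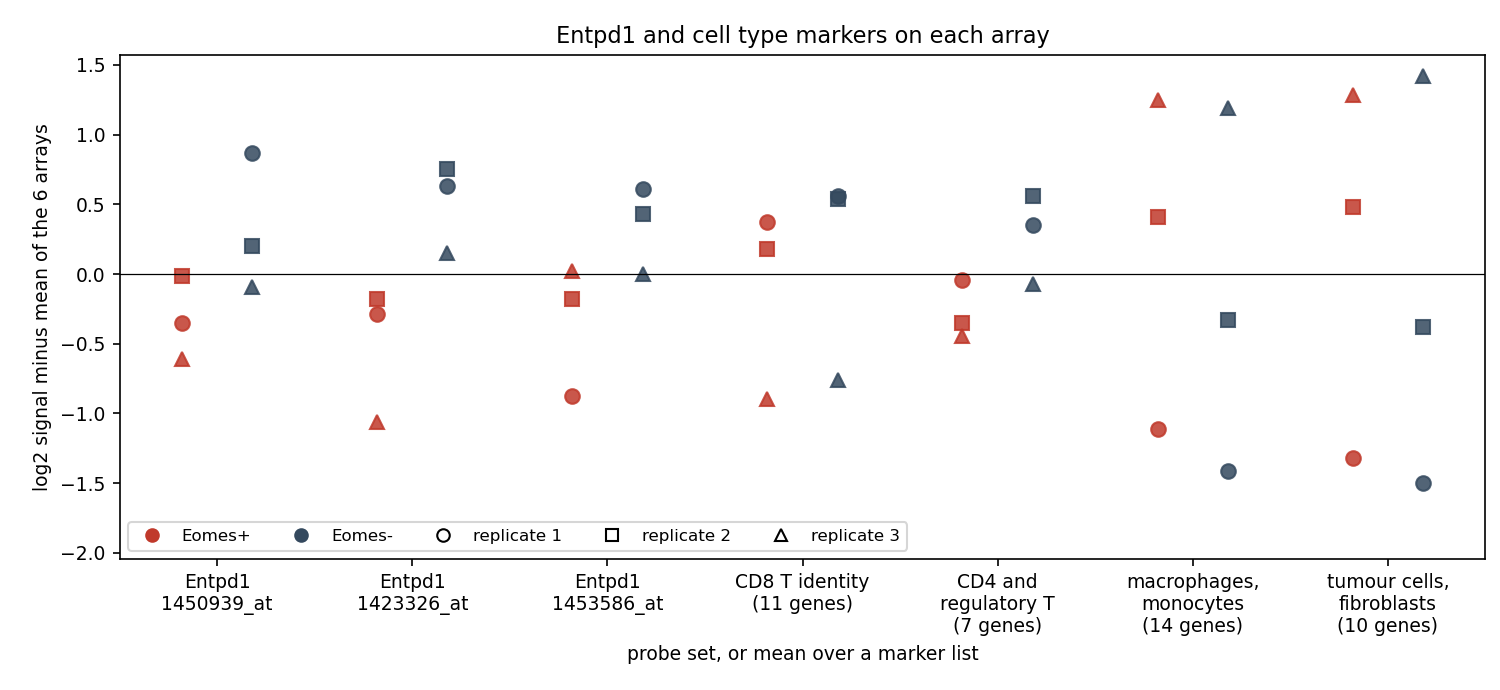
Log2 signal of the 3 Entpd1 probe sets and mean log2 signal of 4 marker lists on each array, minus the mean of the 6 arrays, with Eomes+ arrays left of Eomes- arrays in each column and symbols for the replicate number. Macrophage and tumour lists are lowest on replicate 1 and highest on replicate 3 in both groups, whereas Entpd1 and the CD4 and regulatory list are lower on most Eomes+ arrays than on Eomes- arrays.

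The wider purine pathway was followed through 71 listed genes, of which 50 were tested, 11 lay below the filter and 10 were not analysed here, each tested gene standing by its brightest probe set. The fit called 0 of the 50 at an adjusted p under 0.05 (background 0% of 12571 genes) and 1 at an unadjusted p under 0.05, which is 2% against 3.13% of all genes. A lower mean in Eomes+ was found for 28 of the 50 (56%), against 52.6% of all genes, and the median difference was -0.07 log2, against -0.02 log2 over all genes. Groups did not overlap for 3 of the 50, all lower in Eomes+, against 4.66% of all genes in that direction and 3.05% in the other. These shares lie near the background. The count at an unadjusted p under 0.05 moved with the setting, and so did the share of all genes. It was 10 with array weights (20% against 21.4% of all genes), 7 with the replicate block (14% against 9.82%) and 5 with the covariate of other cells' RNA (10% against 8.72%). It was 0 with quantile normalization (2.86% of all genes), median centring (2.9%) and a robust variance model (3.02%). With the 60th percentile filter it was 0 of 39 (3.08%). With 1 array left out it was 6 without Eomes- replicate 3 (12% against 5.7%), 0 without Eomes+ replicate 1 (3.67% of all genes), 0 without Eomes- replicate 1 (2.08%) and 0 without Eomes- replicate 2 (1.52%).

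Among the other ecto-enzymes, Alpl, the alkaline phosphatase gene, Bst1, the CD157 gene, Enpp3, a nucleotide pyrophosphatase gene, and Entpd2 had differences between -0.42 and -0.05 log2, and 5 of 6 tested members had a lower mean in Eomes+ (list median -0.18 log2, 0 called). That median was 0.04 without Eomes+ replicate 1, close to 0 without Eomes- replicate 3, -0.37 without Eomes- replicate 1 and -0.35 log2 without Eomes+ replicate 3. With the 60th percentile filter it was 0.16 log2. Alpl was above the filter level on 2 of 3 arrays in each group, and Entpd2 on 1 of 3 Eomes+ arrays. Bst1 ranged from 4.76 to 7.28 log2 in Eomes+ and from 4.67 to 7.95 log2 in Eomes-, highest on replicate 3 in each. Of the ENTPD relatives that act inside the cell or are secreted, Entpd5, Entpd6 and Entpd7 lay between -0.17 and 0.17 log2 (0 of 3 called). Entpd7 read 7.61, 7.43 and 7.65 log2 on the Eomes+ arrays, against 7.73, 7.74 and 7.76 log2 on the Eomes- arrays, groups that did not overlap although the difference was only -0.17 log2 (SE 0.23; limma adjusted p = 1.00).

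Genes of ATP release had a list median of 0.20 log2 (5 of 6 tested, 0 called), which ranged from 0.01 without Eomes+ replicate 2 to 0.34 log2 without Eomes- replicate 2. Slc17a9, the vesicular nucleotide transporter, read 8.15, 7.94 and 7.12 log2 on the Eomes+ arrays, against 7.02, 7.75 and 6.46 log2 on the Eomes- arrays (difference 0.66 log2, SE 0.44; limma unadjusted p = 0.178, adjusted p = 1.00). Its groups overlapped, since Eomes+ replicate 3 lay below Eomes- replicate 2. Panx1, the pannexin channel that passes ATP out of T cells, differed by 0.20 log2 (SE 0.40). Gja1, a connexin gene of stromal cells, differed by 0.57 log2 (SE 0.74) and ranged from 9.83 to 12.03 log2 in Eomes+ and from 9.50 to 11.81 log2 in Eomes-, highest on replicate 3 in each.

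Of the 7 ATP-gated P2X channel genes 5 were tested, P2rx7 among them, with differences between -0.20 and 0.09 log2 and 0 called. P2rx5 differed by -0.20 log2 (SE 0.26) and P2rx6 by 0.07 log2 (SE 0.23). P2rx4, which is abundant in macrophages, read 7.51, 7.85 and 9.12 log2 on the Eomes+ arrays, against 7.18, 7.73 and 9.30 log2 on the Eomes- arrays (difference 0.09 log2, SE 0.65). Its highest value in each group was replicate 3, and the groups overlapped throughout. P2rx1 lay below the filter and was not tested.

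Among the G-protein-coupled P2Y receptors, P2ry13, an ADP receptor, was the 1 pathway gene at an unadjusted p under 0.05. It read 6.41, 6.25 and 6.61 log2 on the Eomes+ arrays, against 7.31, 6.80 and 7.04 log2 on the Eomes- arrays, so every Eomes+ array lay below every Eomes- array. The difference was -0.63 log2 (SE 0.26; 95% confidence interval -1.24 to -0.02; limma unadjusted p = 0.0459, adjusted p = 1.00), and it did not pass the test over all probe sets. With quantile normalization, median centring or a robust variance model, no pathway gene, P2ry13 included, had an unadjusted limma p under 0.05. P2ry14, the receptor for UDP-sugars, differed by -0.35 log2 (SE 0.39). P2ry10, counted with the P2Y genes by its name only, differed by 0.12 log2 (SE 0.63) and P2ry6, the UDP receptor of myeloid cells, by 0.67 log2 (SE 1.06). In all, 4 of 8 P2Y genes were tested.

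Genes listed under adenosine uptake and breakdown had differences in both directions, none past the test (8 of 10 tested, list median 0.02 log2, 0 called). That median rose to 0.18 without Eomes+ replicate 1 and to 0.23 log2 with the 60th percentile filter. Ada, adenosine deaminase, which turns adenosine into inosine, read 9.13, 9.54 and 9.78 log2 on the Eomes+ arrays, against 7.99, 8.21 and 9.52 log2 on the Eomes- arrays. Its groups overlapped through Eomes- replicate 3, and the difference was 0.90 log2, or 1.87-fold higher in Eomes+ (SE 0.44; 95% confidence interval -0.14 to 1.95; limma unadjusted p = 0.0806, adjusted p = 1.00). Adk, adenosine kinase, which returns adenosine to AMP inside the cell, read 7.92, 8.77 and 9.07 log2 on the Eomes+ arrays, against 6.75, 7.77 and 8.91 log2 on the Eomes- arrays. That difference was 0.77 log2 (SE 0.59; limma adjusted p = 1.00), in the same direction on 3 of its 4 other probe sets, and within both groups Ada and Adk were highest on replicate 3. Slc29a1, the equilibrative nucleoside transporter ENT1, read 5.77, 5.62 and 5.64 log2 on the Eomes+ arrays, against 6.37, 6.69 and 5.88 log2 on the Eomes- arrays. Its groups did not overlap (difference -0.64 log2, SE 0.27; limma unadjusted p = 0.0535, adjusted p = 1.00), but 2 of 3 Eomes+ arrays lay below the filter level, so the size is uncertain.

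Of the adenosine receptor genes, Adora3 lay below the filter and the other 3 were not analysed here. Downstream of these receptors, 13 of 13 listed genes of cyclic AMP signalling were tested, with a median of -0.09 log2 (-0.14 to 0.01 with 1 array left out) and 0 called. Crem, a cyclic AMP-responsive transcription factor gene, read 9.11, 9.35 and 7.97 log2 on the Eomes+ arrays, against 10.09, 10.10 and 8.89 log2 on the Eomes- arrays. Each Eomes+ array lay below the Eomes- array of the same number, although the labels do not say that the numbers mark pairs. The groups of Crem overlapped (difference -0.88 log2, SE 0.49, limma unadjusted p = 0.115, adjusted p = 1.00). Creb1, its relative, differed by 0.34 log2 (SE 0.34). Gnas, the stimulatory G protein gene, differed by 0.07 log2 (SE 0.15), and the kinase subunit genes Prkaca, Prkacb, Prkar1a and Prkar2a lay between -0.19 and 0.12 log2.

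Of 8 listed genes that gate P2X7 or act below it, 6 were tested, all of which act below it, and 0 were called (median -0.15 log2). The gating enzyme genes Art2a and Art2b were not analysed here. Casp1, the inflammasome protease gene, read 7.96, 8.93 and 8.05 log2 on the Eomes+ arrays, against 9.28, 9.54 and 8.40 log2 on the Eomes- arrays. The groups overlapped through Eomes+ replicate 2 (difference -0.76 log2, SE 0.41; limma unadjusted p = 0.108, adjusted p = 1.00). The sheddase genes Adam10 and Adam17, which cut L-selectin after P2X7 opens, differed by -0.21 log2 (SE 0.27) and -0.10 log2 (SE 0.22). Nlrp3, the inflammasome sensor gene of myeloid cells, differed by 0.03 log2 (SE 0.66) and Pycard, its adaptor, by 0.14 log2 (SE 0.32).

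**Figure D3:**
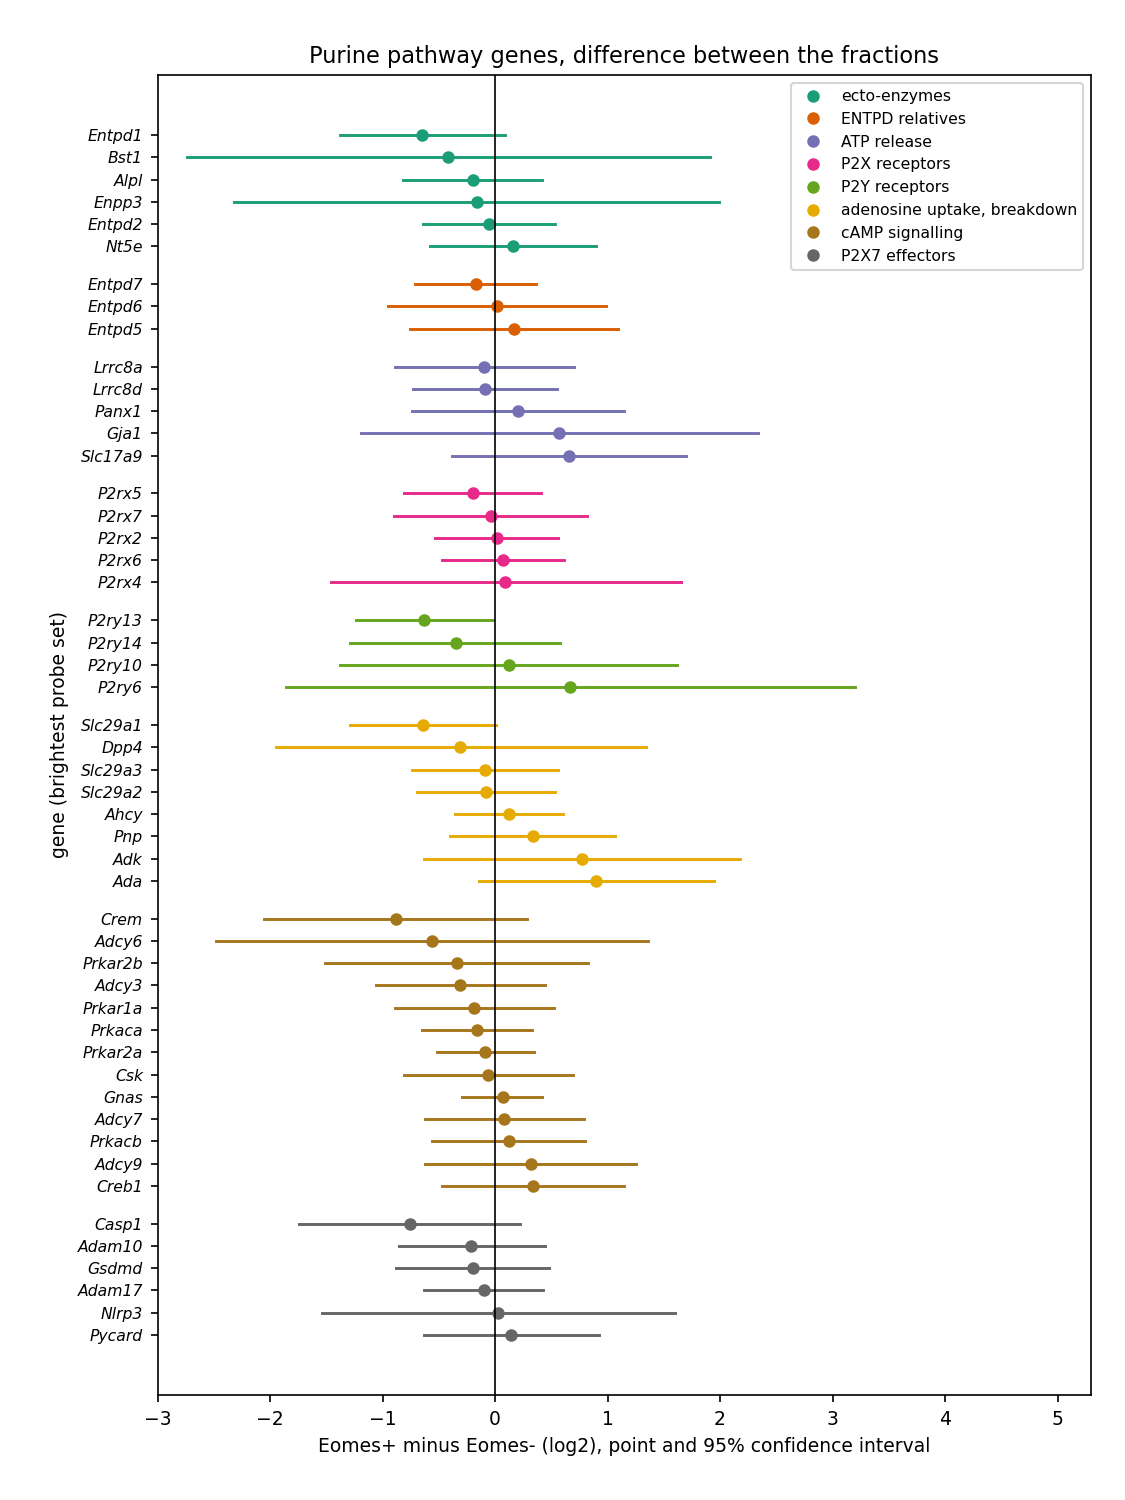
Difference between the fractions (Eomes+ minus Eomes-, log2) for the 50 tested purine genes, grouped and coloured by role; points are limma estimates from 3 arrays a group and lines their 95% confidence intervals. The P2ry13 interval (-1.24 to -0.02) does not reach 0, and those of Entpd1, Slc29a1 and Ada reach it by a small margin.

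The direction of the Entpd1 difference was the same under each of the 22 or 23 other settings in which a probe set could be fitted, whereas Nt5e and P2rx7 changed direction on some of their probe sets. Settings that change only the variance model, the block or the probe sets tested cannot move a difference, so their agreement was fixed in advance. Only normalization, the pseudocount, array weights, the covariate and arrays left out could move it. For 1423326_at the range was -1.20 to -0.75 log2, for 1450939_at -0.87 to -0.36 log2 and for 1453586_at -1.04 to -0.30 log2. The smallest values of the last 2 came without both replicates numbered 1, and leaving out Eomes- replicate 1 alone gave -0.38 log2 on 1450939_at, while leaving out Eomes+ replicate 1 alone gave -0.43 log2 on 1453586_at. No setting brought any of the 9 probe sets past an adjusted p of 0.05, the nearest being Entpd1 1423326_at with array weights (-1.03 log2, limma adjusted p = 0.0839; range over its settings 0.0839 to 1).

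**Figure D4:**
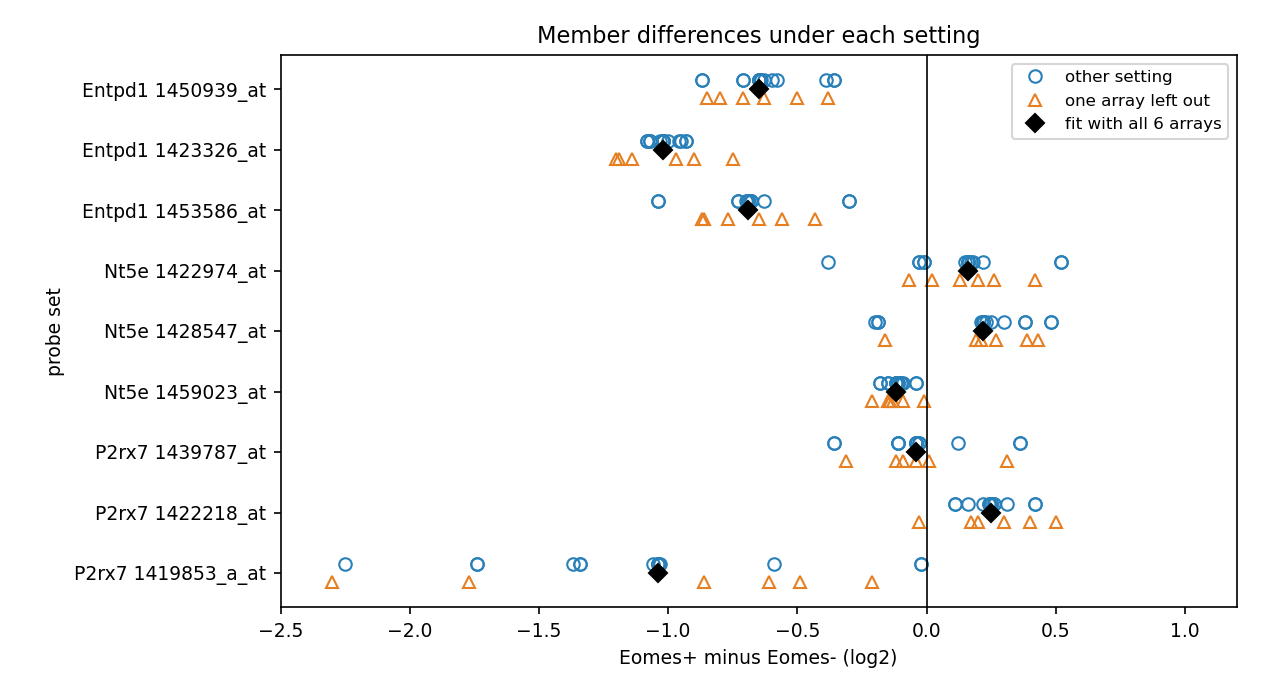
Difference between the fractions (Eomes+ minus Eomes-, log2) of the 9 probe sets, with all 6 arrays (diamonds), with 1 array left out (triangles) and under the other settings (circles). All Entpd1 symbols lie left of 0, between -1.20 and -0.30, while those of 2 Nt5e and 2 P2rx7 probe sets lie on both sides.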

How the data were processed

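The authors deposited a table of log2 signals for 45101 probe sets on 6 arrays; that the scale is log2 was read from the values. The submitters' processing notes name MAS5 and Transcriptome Analysis Console, with neither version nor role. The summary method and normalization are not given in the sources used here, and since array medians are nearly equal, a shift common to most genes would have been removed. Of 45037 probe sets that are not controls, the platform annotation gives 1 symbol for 34945, and symbols were updated through a RefSeq table. No genome coordinates of probe sets are printed because no build is stated.

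A probe set was kept if it exceeded the 40th percentile of the array on 3 or more of the 6 (27766, standing for 12571 genes). The test was limma 3.58.1 under R 4.3.3, using lmFit and a two-sided eBayes whose prior follows intensity, without a block, adjusted by Benjamini-Hochberg over all of them. All 9 member probe sets passed this filter. Differences are Eomes+ minus Eomes-, and the number of arrays limits their precision. Named genes were all members, and of each of 9 pathway lists every gene at an unadjusted p under 0.05 and otherwise the 2 of smallest p, with a few fixed purine genes; other genes named only to fill out a list were chosen after their values were seen. The members, lists and rules were chosen with earlier results of these data known. Alternatives were a replicate block, quantile normalization, median centring, a pseudocount of 16, no filter or the 60th percentile, 1 probe set per gene, other variance models, array weights, a covariate for other cells' RNA and arrays left out.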

Additional observations from a re-analysis of the deposited data

How the results depend on the processing

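Over the alternatives, 182 values of the 9 member differences kept their direction and side of the threshold and 16 changed direction, all on Nt5e or P2rx7. The cause was not tested. The 182 include settings that cannot move a difference, such as another variance model or filter. With array weights, Nt5e was -0.38 (1422974_at) and -0.20 (1428547_at) and P2rx7 1439787_at 0.12 log2. Leaving out 1 array or 1 replicate number gave -0.07 to 0.52 and -0.19 to 0.48 for these Nt5e probe sets, -0.36 to 0.36 for P2rx7 1439787_at and -0.03 to 0.50 log2 for P2rx7 1422218_at. Deviations from the group mean correlated between arrays of the same number at 0.665, 0.0949 and 0.691. The closest match of Eomes- replicate 2 was another number, Eomes+ replicate 1 (0.372). Within a group of 3 arrays the deviations of 2 arrays fix that of the third. These correlations therefore cannot decide whether the numbers mark pairs. The replicate block left the whole-table calls at 0 and gave Entpd1 1423326_at -1.02 log2 (limma adjusted p = 0.26). Replicate block fits without 1 number, added after seeing the data, gave Nt5e 1422974_at -0.01 and -0.03, Nt5e 1428547_at -0.19 and P2rx7 1439787_at 0.36 log2 without numbers 1 or 3. Whole-table calls were 74 with array weights and 1 with the replicate block without replicate 2. The P2X median was 0.12 with array weights, -0.11 with the covariate of other cells' RNA and -0.09 with the replicate block without replicate 2, and -0.30 (without Eomes- replicate 1) to 0.14 log2 (without Eomes- replicate 3) with arrays left out. Likewise the median of Golgi and secreted ENTPD relatives ranged from -0.14 to 0.41 and that of P2X7 effectors from -0.34 to -0.06 log2, the larger shifts coming without Eomes+ replicate 3. Low signal limits, among others, P2rx7 1419853_a_at, Nt5e 1459023_at, Slc29a1, Cd40lg, Alpl, Entpd2 and Bst1, which lay near or below the filter level on some arrays.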
